A study of Mus musculus with 6 samples.

Results

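The genes of cholesterol synthesis, uptake and export were examined in mouse optic nerve after Nf1 had been targeted with an inducible Cre. They are 30 named genes, all found among the 24062 gene symbols of the deposited count tables: 18 enzymes of synthesis, 4 genes of sterol sensing, and 8 genes of transport and its nuclear receptors. The genes were listed by name for their roles in the route, with earlier results of these data known. The mutant group was 3 libraries of genotype PlpCreERT2;Nf1flox/flox, in which a tamoxifen-inducible Cre recombinase is driven by a promoter that is active in oligodendrocytes. The control group was 3 libraries without the Cre, of which control library 1 was Nf1flox/flox and control libraries 2 and 3 were Nf1flox/+. All animals were given tamoxifen as adults older than 2 months, and optic nerves were taken 1 month later. Total RNA was amplified before library preparation. Whether each library came from its own animal is not given, so the tests speak to the scatter of these 6 libraries, and some of that scatter may be technical.

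Cholesterol is a main lipid of myelin, and because the blood-brain barrier holds back circulating lipoproteins, the nervous system makes its own. Acetyl-CoA is turned into mevalonate, mevalonate into isoprenoids, and isoprenoids into squalene, which is closed into a ring and trimmed to cholesterol. The transcription factor SREBP2 (encoded by Srebf2) is carried by Scap out of the endoplasmic reticulum when sterols are low and switches on the genes of this route, while Insig1 holds it back when sterols are high. In the adult nerve, astrocytes export cholesterol on Apoe particles through Abca1 and Abcg1, Lrp1 takes such particles up, Npc1 and Npc2 move cholesterol out of lysosomes, and the LXR receptors Nr1h2 and Nr1h3 switch on export.

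SREBP2 acts with the factor NF-Y at the promoters of synthesis genes, so the 250 bases before the transcription start were read from RefSeq (build GRCm38.p6), in which 24 of the 30 genes had an entry. They are given for 5 genes: the leading mevalonate and sterol enzymes Hmgcs1 and Msmo1, the sterol enzymes Nsdhl and Hsd17b7, and the sensor Insig1. Nsdhl and Hsd17b7 are 2 of the 3 sterol enzymes whose groups of libraries did not overlap, and the other, Dhcr7, is not shown. In each of the 5 genes, the base after the window is the gene's start in the deposited annotation (mm10). Hmgcs1 (chr13:119690101-119690350), Nsdhl (chrX:72918271-72918520) and Insig1 (chr5:28071162-28071411) lie on the plus strand, and Msmo1 (chr8:64733579-64733828) and Hsd17b7 (chr1:169969206-169969455) on the minus strand. Capitals mark CCAAT, the NF-Y box, on either strand (ATTGG when read from the other strand), and TCACNCCAC, a spelling of the sterol regulatory element.
Hmgcs1: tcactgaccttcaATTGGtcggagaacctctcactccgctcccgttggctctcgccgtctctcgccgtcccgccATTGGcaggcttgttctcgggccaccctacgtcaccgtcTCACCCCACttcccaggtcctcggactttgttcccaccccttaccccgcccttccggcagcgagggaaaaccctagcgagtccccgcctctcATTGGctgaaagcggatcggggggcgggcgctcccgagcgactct
Msmo1: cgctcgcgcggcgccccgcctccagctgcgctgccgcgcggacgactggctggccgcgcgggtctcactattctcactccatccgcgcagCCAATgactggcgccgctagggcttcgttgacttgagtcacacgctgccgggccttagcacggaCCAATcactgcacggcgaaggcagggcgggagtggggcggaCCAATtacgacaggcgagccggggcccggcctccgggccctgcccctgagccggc
Nsdhl: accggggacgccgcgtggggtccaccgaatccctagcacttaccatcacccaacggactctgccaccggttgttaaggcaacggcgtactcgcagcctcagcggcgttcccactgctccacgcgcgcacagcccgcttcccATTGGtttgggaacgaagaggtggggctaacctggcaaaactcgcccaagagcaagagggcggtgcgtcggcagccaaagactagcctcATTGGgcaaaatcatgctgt
Hsd17b7: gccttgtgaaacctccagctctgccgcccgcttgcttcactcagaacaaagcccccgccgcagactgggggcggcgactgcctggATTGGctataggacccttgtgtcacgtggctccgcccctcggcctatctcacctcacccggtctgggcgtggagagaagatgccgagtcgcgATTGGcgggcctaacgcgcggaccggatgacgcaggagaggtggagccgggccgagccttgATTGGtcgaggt
Insig1: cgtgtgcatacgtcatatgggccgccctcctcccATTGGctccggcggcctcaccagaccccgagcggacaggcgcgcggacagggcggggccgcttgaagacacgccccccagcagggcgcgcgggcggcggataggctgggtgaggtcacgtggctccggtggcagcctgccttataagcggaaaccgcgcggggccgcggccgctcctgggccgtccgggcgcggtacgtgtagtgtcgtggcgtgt
CCAAT was found on either strand in 17 of the 24 genes, against 37.5% of 27025 genes with such windows. Of those 17 genes, 16 belong to synthesis or sensing, the roles of most of the 24 genes, and Npc2 is the other. The strict spelling TCACNCCAC was found in Hmgcs1 alone, 137 bases before the start, against 1.22% of all genes, and the looser TCACNCNAC, which includes it, in Hmgcs1 and Nsdhl, against 2.65%. CACGTG, the E-box, was found in 6 of the 24, against 6.86%. For 5 of the 24, more than 1 start was listed and any of their windows counted. A match describes these letters only.

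The libraries held 13555756 to 19012262 counts in mutants and 21307855 to 23662698 counts in controls. Nf1 itself had 304, 226 and 433 CPM (counts scaled to library size, with TMM-adjusted sizes) in mutant libraries 1, 2 and 3, against 394, 400 and 337 CPM in control libraries 1, 2 and 3. Such counts sum all exons of Nf1, the floxed part among them, and so do not check the labels. Oligodendrocyte markers, such as Mbp, Mog and Mag, were present in every library (12 of 12). Summed over the list they reached 5930, 35907 and 5004 CPM in mutant libraries 1, 2 and 3, against 27656, 28746 and 27732 CPM in controls. Mutant library 2 thus stood apart from the other mutants, and the main results are given with and without it. Neuron markers were at 5749, 1611 and 4153 CPM in mutant libraries 1, 2 and 3, against 467 to 854 CPM in controls. Xist, a transcript of the inactive X chromosome, was at 2075.5, 2313 and 3611 CPM in mutant libraries 1, 2 and 3, against 2.87, 3016 and 1.41 CPM in control libraries 1, 2 and 3, so animal sex and genotype are partly confounded.

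All 30 genes passed the filter on low counts, with 38 to 24331 counts per gene and library. Levels between genes were compared as CPM per kb of exon, since longer genes collect more reads. Apoe, the lipid carrier, was the most abundant at 614 ± 472 CPM per kb in mutants and 714 ± 82.5 CPM per kb in controls (SD, n = 3 each, as for all means here). Hmgcs1, which makes the precursor of mevalonate, came next in both groups at 72.7 ± 27.1 CPM per kb in mutants and 112 ± 39.7 CPM per kb in controls. Npc1, Insig1 and Msmo1 followed, in that order, in both groups. Npc1 (44.2 CPM per kb in mutants, 61.5 CPM per kb in controls) and Insig1 (39.7 ± 17.5 CPM per kb in mutants, 59.3 ± 4.76 CPM per kb in controls) did not differ from each other beyond their spread. At the low end stood Nr1h3, the LXR of macrophages and liver, at 1.87 ± 1.12 CPM per kb in mutants and 2.52 ± 0.550 CPM per kb in controls. Mvd and Mvk, which act on mevalonate, were also low, at 4.14 ± 2.09 and 5.70 ± 2.98 CPM per kb in mutants and 5.57 ± 0.558 and 6.92 ± 0.203 CPM per kb in controls. Mvd and Nr1h3 were the lowest pair in both groups.

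**Figure D1:**
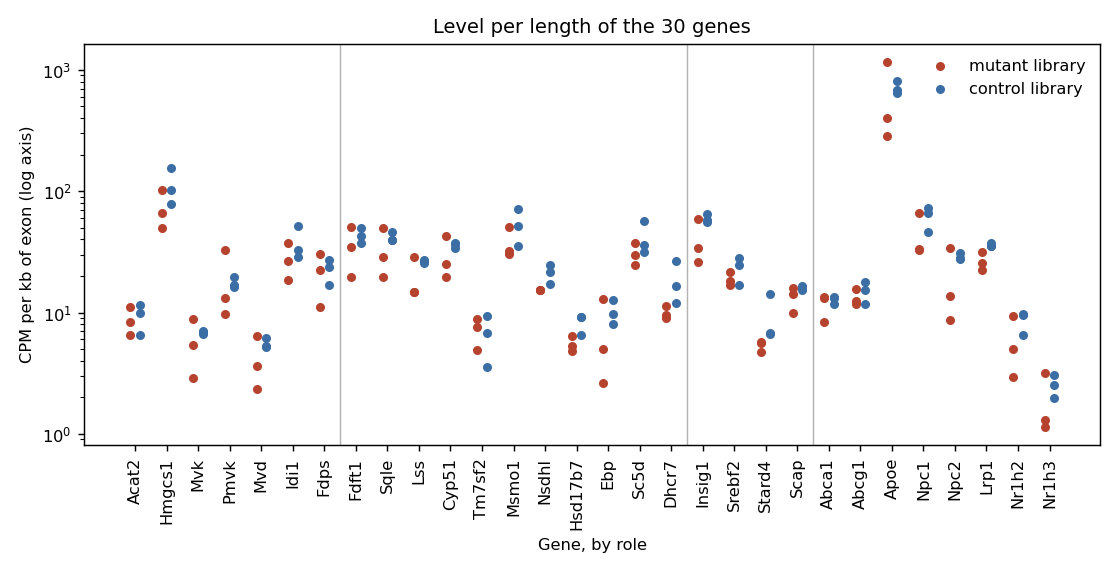
Level of each of the 30 genes in CPM per kb of exon (log axis), grouped by role as mevalonate steps, sterol steps, sterol sensing, and transport and LXR. Each point is 1 library, mutants left and controls right; Apoe lies above all other genes and Nr1h3 at the bottom.

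The comparison asks whether cholesterol genes of the nerve differed 1 month after Nf1 was targeted. None of the 30 genes passed an adjusted p of 0.05 by edgeR, where 3.29% of 16315 genes tested did (2.95% higher and 0.337% lower in mutants) (unadjusted p under 0.05 in 3 of the 30, namely Dhcr7, Hsd17b7 and Stard4, against 19.2% of all genes). DESeq2 also called none of the 30, against 10.1% of all genes. Voom with quality weights, which gives less weight to a library that departs from its group, called 7 of the 30 lower (Hmgcs1, Lss, Hsd17b7, Ebp, Insig1, Npc1 and Npc2), against 12.4% of all genes (24.6% in either direction). The log2 fold change, mutant over control, was nevertheless negative for 28 of the 30, against 50.1% of all genes. The median was -0.43 for the synthesis enzymes, -0.44 for sterol sensing and -0.44 for transport and LXR, against -0.0017 for all genes. In 5 of the 30, or 16.7%, every mutant library was below every control, against 11.5% of all genes, and in none was every mutant above. Scaling to myelin transcripts turned all 30 positive, with medians of 1.22 for synthesis and 1.07 for transport, but moved the median of all genes by 1.87, so relative to all genes the medians stayed negative. In whole nerve, fewer cells of a type, less RNA per cell and a larger share of RNA from other cells cannot be told apart.

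**Figure D2:**
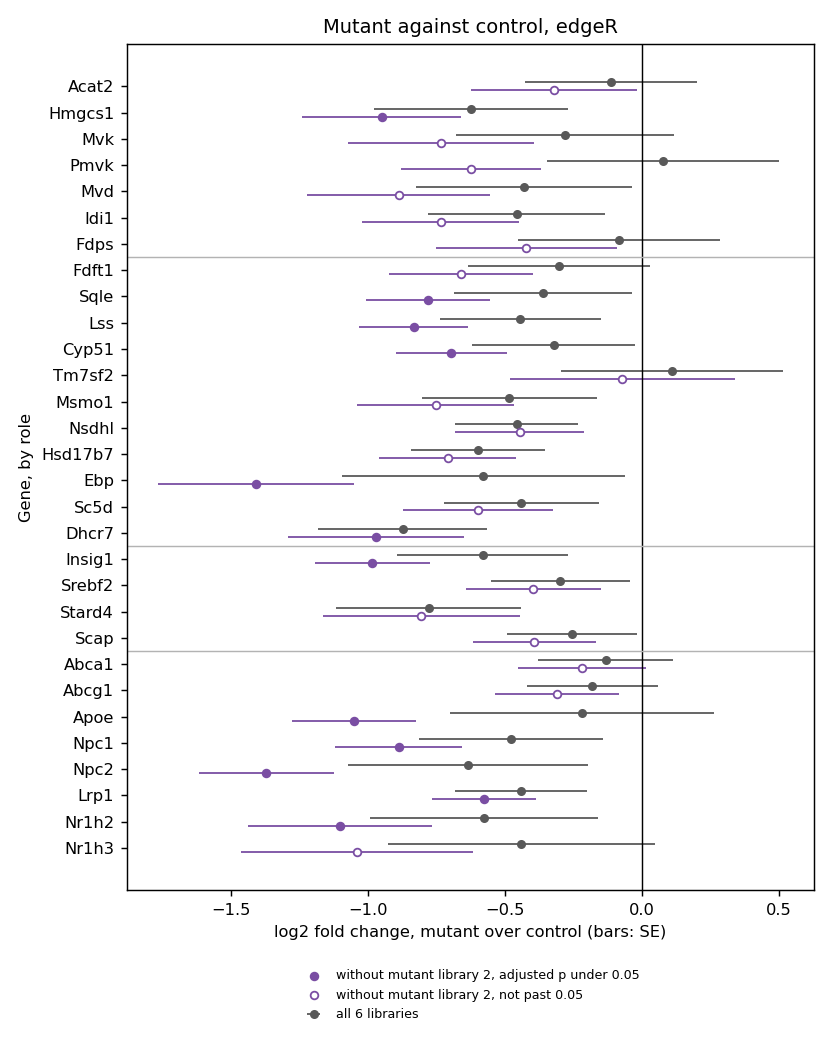
Log2 fold change of each gene, mutant over control, with its SE, from all 6 libraries (grey) and without mutant library 2 (purple, filled where the edgeR adjusted p was under 0.05). With all libraries 28 of 30 values are negative and none passed; without mutant library 2 all 30 are negative and 12 passed.

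The 7 mevalonate enzymes had a median log2 fold change of -0.28, and none passed. Hmgcs1 (chr13:119690351-119708260), whose promoter above holds the sterol regulatory element spelling, had 178, 367 and 234 CPM in mutant libraries 1, 2 and 3, against 557, 363 and 280 CPM in control libraries 1, 2 and 3. Its groups overlapped, because mutant library 2 was above 2 of the controls. In edgeR this came to -0.62 on the log2 scale (SE 0.35, adjusted p 0.377). Idi1, which interconverts the isoprenoid building blocks, had the same shape, with 53.0, 106 and 75.7 CPM in mutants against 147, 93.6 and 82.1 CPM in controls. For Pmvk, the phosphomevalonate kinase, mutant library 2 was above every control at 49.7 CPM and the other mutants were below every control at 19.7 and 14.5 CPM, against 24.3 to 29.6 CPM in controls. Mvk and Mvd, with fold changes of -0.28 and -0.43, were arranged in the same way. Fdps, which builds farnesyl units, and Acat2, which joins acetyl-CoA, were at -0.08 and -0.11. Acat2 has a near copy, Acat3, and reads could be split between them, so its value is uncertain.

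Of the 11 sterol enzymes, 10 had a negative fold change and the median was -0.44. The 3 whose groups did not overlap all act after ring closure, as do Cyp51, Tm7sf2, Msmo1, Ebp and Sc5d, whose groups overlapped. Dhcr7, the reductase that finishes cholesterol (chr7:143823167-143848410), had 25.4, 32.0 and 27.1 CPM in mutants, against 74.2, 46.9 and 33.6 CPM in controls. Every mutant library was below every control, yet the nearest pair, 32.0 and 33.6 CPM, nearly met, and control library 1 stood high. Its log2 fold change of -0.87 (SE 0.31) was the lowest of the 30, with an edgeR adjusted p of 0.174. Hsd17b7, a sterol ketone reductase, had 22.1, 29.0 and 24.3 CPM in mutants, against 42.3, 41.6 and 30.1 CPM in controls (log2 fold change -0.60, SE 0.24, edgeR adjusted p 0.230). Nsdhl, the X-linked dehydrogenase that works beside it, had 34.2, 33.8 and 34.1 CPM in mutants, against 47.6, 54.6 and 37.9 CPM in controls (log2 fold change -0.46, SE 0.23, edgeR adjusted p 0.310). For Nsdhl mutant library 2 was close to the other mutants. For Dhcr7 and Hsd17b7 it was the highest mutant and lay nearer to the lowest control than to the next mutant.

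The other sterol enzymes, apart from Tm7sf2, were split by mutant library 2. Sqle, the squalene oxidase, had 78.7, 135 and 54.4 CPM in mutants, against 109, 127 and 108 CPM in controls. Lss, which closes the ring, had 45.9, 89.3 and 45.6 CPM in mutants, against 84.3, 82.5 and 78.7 CPM in controls. Cyp51, the lanosterol demethylase, had 109, 184 and 85.1 CPM in mutants, against 163, 161 and 148 CPM in controls. In all 3, mutant library 2 was the highest of the 6 libraries and the other mutants were below every control, while the controls lay close together. For Fdft1, the squalene synthase, and Ebp, a sterol isomerase, mutant library 2 was also highest and the other mutants were below every control. Their controls were further apart, the highest at 1.31 and 1.56 times the lowest. Msmo1, a demethylation enzyme, had 55.1, 92.6 and 58.6 CPM in mutants, against 131, 93.9 and 64.0 CPM in controls (log2 fold change -0.48, SE 0.32, edgeR adjusted p 0.449). Mutant library 2 lay among the controls, as it did for Sc5d, a desaturase, with 55.7, 83.5 and 66.6 CPM in mutants against 127, 80.9 and 70.6 CPM in controls. Tm7sf2, a sterol reductase, had a log2 fold change of 0.11 (SE 0.41). Its mutants, at 11.2, 13.1 and 7.33 CPM, lay inside the control range of 5.30 to 13.9 CPM. Exons of Ctsb on the other strand cover 27.0% of the exon bases of Fdft1, and counting was without strand, so its values are uncertain to that extent.

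Among the 4 sensing genes, none passed and all 4 fold changes were negative. Stard4, a carrier of free sterol, had 17.2, 16.7 and 14.0 CPM in mutants, against 42.1, 20.4 and 19.7 CPM in controls. Every mutant was below every control, and control library 1 stood above the other controls, at 2.14 times control library 3. In edgeR this came to -0.78 on the log2 scale (SE 0.34, adjusted p 0.254). Insig1, the brake on SREBP2, had 89.7, 157 and 68.5 CPM in mutants, against 153, 147 and 171 CPM in controls, or -0.58 on the log2 scale in edgeR (SE 0.31, adjusted p 0.353). Here mutant library 2 lay among the controls and the other mutants were well below them. Srebf2 itself had 83.8, 98.6 and 77.2 CPM in mutants, against 129, 113 and 76.5 CPM in controls, and Scap was at -0.25 (SE 0.24). The groups overlapped for both.

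All 8 transport and LXR genes had negative fold changes and none passed. Apoe (chr7:19696244-19699166) had 505.1, 1444 and 355 CPM in mutants, against 812, 858 and 1009 CPM in controls. No mutant library was inside the control range: mutant library 2 was above all controls and the others were below. The edgeR value, -0.22 on the log2 scale (SE 0.48, adjusted p 0.845), therefore averages 2 opposite arrangements. Npc2, the soluble lysosomal carrier, had the same shape with 44.7, 110 and 28.1 CPM in mutants, against 101, 90.5 and 92.4 CPM in controls. Its membrane partner Npc1 had 174, 346 and 171 CPM in mutants, against 342, 380 and 240 CPM in controls. Lrp1, the lipoprotein uptake receptor, had 383, 469 and 334 CPM in mutants, against 562, 521 and 525 CPM in controls (log2 fold change -0.44, SE 0.24, edgeR adjusted p 0.358). It was the 1 member of this group in which every mutant was below every control. Abca1 and Abcg1, the exporters, had log2 fold changes of -0.13 (SE 0.25) and -0.18 (SE 0.24). For Abca1, mutant library 3 matched the highest control at 138 CPM, after rounding. Nr1h2, the widely expressed LXR, and Nr1h3 were at -0.58 (SE 0.42) and -0.44 (SE 0.49).

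**Figure D3:**
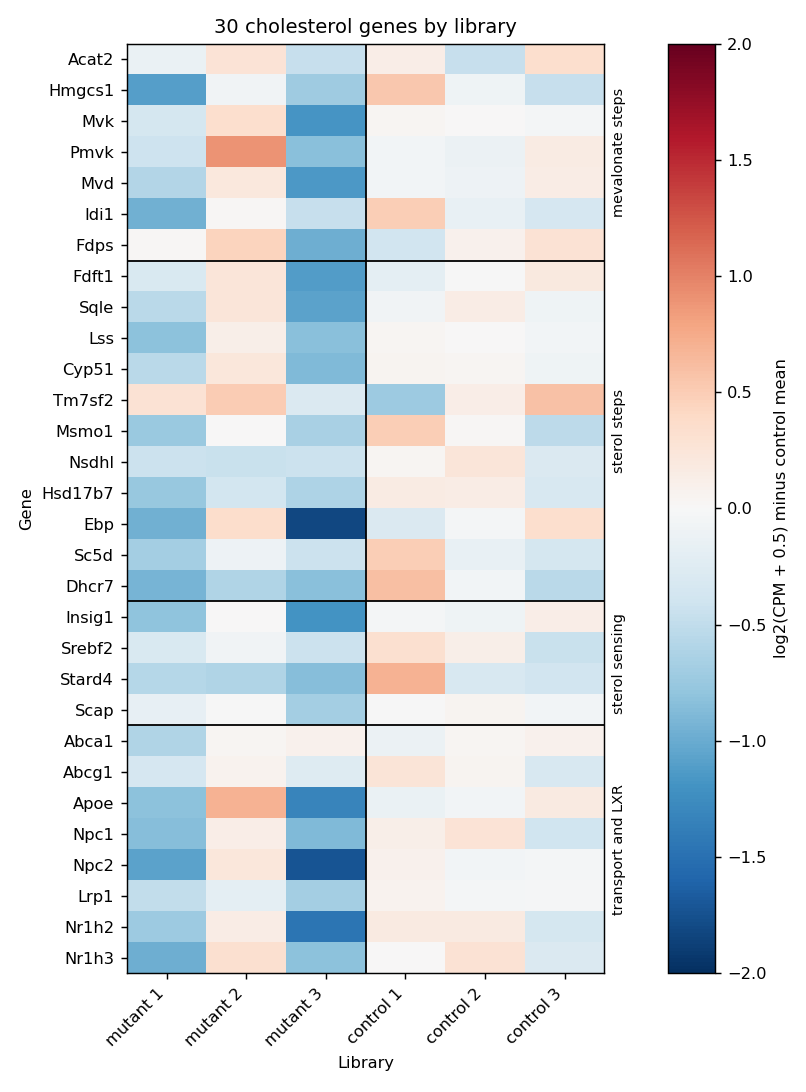
Log2(CPM + 0.5) of each gene in each library, minus the mean of the controls, with mutant libraries left and controls right, and roles separated by lines. Mutant libraries 1 and 3 are mostly blue, mutant library 2 is mostly near white or red, with Nsdhl, Dhcr7, Stard4 and Hsd17b7 among the blue exceptions, and control library 1 is red for Hmgcs1, Idi1, Msmo1, Sc5d, Dhcr7 and Stard4.

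The spread among the libraries of a group was part of the pattern. Mutant library 2 was the highest mutant library in 27 of the 30 genes, against 38.9% of all genes tested, and above every control in 12, against 29.3%. The exceptions to the first were Nsdhl, Stard4 and Abca1. Mutant libraries 1 and 3 were both below every control in 24 of the 30 genes, against 27.3% of all genes. The highest mutant library had a median of 2.02 times the CPM of the lowest, and the highest control 1.45 times the lowest control. The widest mutant spreads were those of Ebp (4.93 times), Apoe (4.07 times) and Npc2 (3.92 times), and the narrowest that of Nsdhl (1.01 times). Controls differed most for Tm7sf2 (2.63 times), Dhcr7 (2.21 times), Stard4 (2.14 times), Msmo1 (2.04 times) and Hmgcs1 (1.99 times). In the last 4, control library 1, the Nf1flox/flox control, was highest, as it was in 14 of the 30 genes, or 46.7%, against 35.9% of all genes. Lss, Cyp51 and Mvk, by contrast, differed by at most 1.10 times between controls. Counts of Rn45s, the ribosomal RNA precursor, made up 4.97%, 8.21% and 1.73% of mutant libraries 1, 2 and 3, against 10.9%, 5.06% and 3.53% of control libraries 1, 2 and 3. Within each group the libraries fell in the same order by this share as by the mean of the synthesis enzymes given with the cell type markers, and its part in the spread was not tested.

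Without mutant library 2, 12 of the 30 genes fell (40.0%, against 13.8% of 16857 genes tested in that fit), and all 30 fold changes were negative. This leaves 2 mutant libraries against 3 controls, and the gain in calls held over all genes, of which 27.0% then passed. Each library was left out in turn, but mutant library 2 was singled out after its values were seen. It was the highest mutant library in 27 of the 30 genes, so leaving it out lowers their mutant means. The p-values of that fit do not allow for this choice. Those that fell were the enzymes Hmgcs1, Sqle, Lss, Cyp51, Ebp and Dhcr7, the sensor Insig1, and Apoe, Npc1, Npc2, Lrp1 and Nr1h2. Apoe fell by 1.05 (SE 0.23, edgeR adjusted p 0.00605), Npc2 by 1.37 (SE 0.25, edgeR adjusted p 0.00211) and Insig1 by 0.98 (SE 0.21, edgeR adjusted p 0.00565) on the log2 scale. Among the enzymes, Ebp fell by 1.41 (SE 0.36, edgeR adjusted p 0.0139), Hmgcs1 by 0.95 (SE 0.29, edgeR adjusted p 0.0331) and Lss by 0.83 (SE 0.20, edgeR adjusted p 0.0105). The medians were then -0.72 for synthesis, -0.60 for sensing and -0.96 for transport and LXR. Stard4, Nsdhl and Hsd17b7, whose groups did not overlap with all libraries, did not pass without mutant library 2 either (edgeR adjusted p 0.128, 0.199 and 0.0597). Taken alone against the controls, mutant library 2 gave medians of 0.22 for synthesis and 0.12 for transport and LXR. All the spread in that fit comes from the 3 controls, and the lone library is assumed to vary like them, so its calls (0 of the 30, against 1.28% of all genes) have no replicate check in mutants. Among the 4 libraries with high Xist, which hold 1 control, assumed to vary like the 3 mutants, 27 of the 30 values were negative, the synthesis median was -0.34 and none passed by edgeR, as for all genes (unadjusted p under 0.05 in 0 of the 30 and in 894, or 5.24%, of all genes). With Xist as a covariate in all 6 libraries none passed either, of the 30 or of all genes (unadjusted p under 0.05 in 0 of the 30 and in 1299, or 7.96%, of all genes).

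Some lists of cell type markers moved with these values, and neuron markers did not. The mean of the 18 synthesis enzymes, as log2 CPM minus the control mean, was -0.55, 0.13 and -0.82 in mutant libraries 1, 2 and 3, and between -0.06 and 0.07 in controls. The 12 oligodendrocyte markers had -2.06, 0.18 and -2.54 in the same mutant libraries and -0.10 to 0.11 in controls. Both lists thus had mutant library 2 near the controls and the other mutants lower, with the oligodendrocyte markers further down. Summed synthesis CPM was 0.145, 0.0412 and 0.165 of summed oligodendrocyte marker CPM in mutant libraries 1, 2 and 3, against 0.0615, 0.0483 and 0.0442 in control libraries 1, 2 and 3. Astrocyte markers had -0.59, -0.05 and -0.67, and microglia markers -0.52, 0.30 and -1.05, in mutant libraries 1, 2 and 3. Summed over their 8 genes, astrocyte markers ranged from 5435 to 6374 CPM in mutants and from 5044 to 5316 CPM in controls. That is the other direction from their mean log value in mutant libraries 1 and 3. Slc1a2, the most abundant of the 8 in every library, had 4772, 3214 and 3983 CPM in mutants, against 2005, 1948 and 1813 CPM in controls. Of the 8 genes, 5 had a negative log2 fold change and 3 a positive one. Summed microglia markers ranged from 314 to 726 CPM in mutants and from 565 to 720 CPM in controls. Neuron markers were 3.83, 1.20 and 3.09 above the control mean in the same order, and 5 of their 7 genes rose. None of the markers in these 4 lists had 0 counts in any library, although Slc17a7, a marker of excitatory neurons, had 1 count in mutant library 2. Mutant library 2 also departed from the controls in other marker lists. Striatal neuron markers had 4.35, 3.72 and 3.70 in mutant libraries 1, 2 and 3 on this scale, and 8 of 8 rose. Fibroblast markers had -2.51, -0.68 and -2.21 in the same libraries, and for 6 of 6 every mutant was below every control, although none passed. Endothelial markers had -1.49, -0.50 and -1.51, and 1 of 5 fell. Markers of border macrophages had -1.74, -0.23 and -1.36, and none of 4 passed. The part of cell makeup in the values of the cholesterol genes was not tested.

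**Figure D4:**
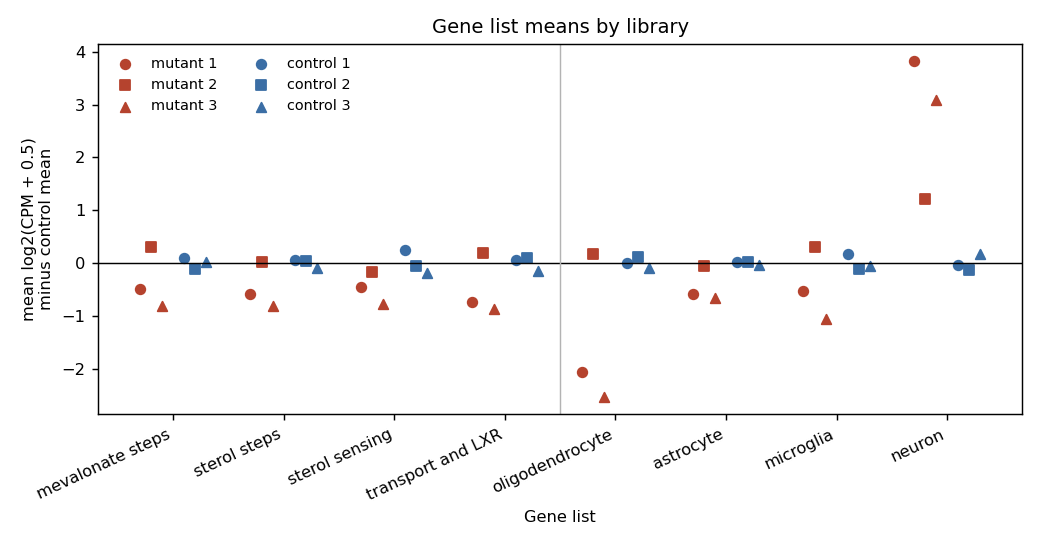
Mean log2(CPM + 0.5) of each gene list in each library, minus the control mean, for the 4 roles of cholesterol genes (left of the line) and 4 cell type marker lists (right). Mutant libraries 1 and 3 lie below the controls for all cholesterol roles, for oligodendrocyte, astrocyte and microglia markers, and above them for neuron markers.

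Other genes of the sterol pathway, 40 in all, were taken from 4 lists. Of these 1 rose and none fell, where 2.95% of all genes rose and 0.337% fell. The 1 that rose was Cyp46a1, the neuronal enzyme that hydroxylates cholesterol for removal from the brain. It had 37.3, 18.8 and 23.0 CPM in mutants, against 7.63, 9.29 and 7.14 CPM in controls, so every mutant was above every control. In edgeR it rose by 1.72 on the log2 scale (SE 0.32, adjusted p 0.0267), beside the rise of neuron markers given above. The call was kept without mutant library 2 and lost without any other single library (edgeR adjusted p 0.0620 to 0.159), as it was with Xist as a covariate (edgeR adjusted p 0.498). In the same list of esterification and oxysterol genes, Ch25h, a cholesterol hydroxylase that makes an oxysterol, had 4, 3 and 1 counts in mutants, against 26, 29 and 18 counts in controls (log2 fold change -2.60, edgeR adjusted p 0.108).

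The 10 other regulators had a median log2 fold change of -0.15, and none passed. Erlin1, a membrane protein of the endoplasmic reticulum that binds cholesterol, had 59.5, 37.7 and 48.2 CPM in mutants, against 22.8, 25.9 and 25.2 CPM in controls (log2 fold change 0.98, SE 0.24, edgeR adjusted p 0.0688). It passed by DESeq2 (adjusted p 0.00748) and without mutant library 2 (edgeR adjusted p 0.00337). Srebf1, which drives fatty acid synthesis, had 32.4, 78.1 and 29.9 CPM in mutants, against 103, 82.4 and 103 CPM in controls (log2 fold change -1.04, SE 0.37, edgeR adjusted p 0.177). Every mutant was above every control for Erlin1 and below for Srebf1. Without mutant library 2, Srebf1 was at -1.61 (SE 0.22, edgeR adjusted p 0.000404). Of the 17 other transport genes none passed and the median was -0.37. Among them Pltp, a phospholipid transfer protein, was at -0.79 (SE 0.33, edgeR adjusted p 0.240). Without mutant library 2 it was at -1.25 (SE 0.23, edgeR adjusted p 0.00251). Pltp shares 27.4% of its exon bases with Ctsa on the other strand. In the 7 genes of the other isoprenoid branches the median was 0.19. Fntb, a farnesyl transferase subunit, was at -0.45 (SE 0.24) and Pdss1, of coenzyme Q synthesis, at 0.50 (SE 0.32). Pdss1 shares 16.6% of its exon bases with Abi1 on the other strand.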

How the data were processed

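RNA-seq counts were analysed for 6 optic nerve libraries, 3 mutant and 3 control. Per the file headers, the authors deposited raw counts of read pairs per gene, made with featureCounts 1.4.6-p4 over exons, without regard to strand, on the UCSC mm10 gene set. TopHat and mm10 are named in the submitters' processing notes. Libraries were numbered in order of deposit, which pairs no samples. All pairs of a group differed beyond sampling noise (chi-square per degree of freedom at least 48.2). Counting intervals would cover counting error only, since amplified reads are not independent molecules.

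Testing used edgeR 4.0.16 in R 4.3.3, with TMM scaling, filterByExpr (minimum count 10), quasi-likelihood F test, no covariate, Benjamini-Hochberg adjustment over all 16315 genes tested, threshold 0.05. Standard errors were taken from F, as the absolute log2 fold change over its root. CPM uses TMM-scaled library sizes. Alternatives were other scalings, DESeq2 1.42.0, limma 3.58.1 (voom), other filters, Xist as a covariate, subsets, and leaving out each library. The test was also run on simulated counts with known changes.

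The members and gene lists were chosen with earlier results of these data known. Named by rule were all 30 members and, from the other lists, the genes that passed plus the 2 with the smallest p, of which 1 is not reported here.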

Additional observations from a re-analysis of the deposited data

How the results depend on the processing

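The count of genes called was 537 in the main fit, and 2847 when scaled to the myelin list, 1645 by DESeq2, 4009 by limma-voom with quality weights, 870 with no filter on low counts, 222 for mutant library 2 alone against the controls (with the spread from the controls only), and 0 with Xist as a covariate or in the libraries with high Xist (1299 and 894 at an unadjusted p under 0.05). It ranged from 51 to 4551 when 1 library was left out. The count of the 30 genes called was 0, except 7, all lower, by limma-voom with quality weights (12.4% of all genes were called lower there), and ranged from 0 to 12 when 1 library was left out. The synthesis median ranged from -0.72 to -0.17, and the transport and LXR median from -0.96 to -0.24, when 1 library was left out. Mutant library 2 alone gave 0.22 and 0.12.

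Mutant library 2 alone against the controls turned the sign of 18 genes: Acat2 (0.25), Mvk (0.35), Mvd (0.21), Fdps (0.43), Fdft1 (0.23), Sqle (0.24), Lss (0.13), Cyp51 (0.23), Ebp (0.34), Insig1 (0.0034), Abca1 (0.041), Abcg1 (0.058), Apoe (0.69), Npc1 (0.11), Npc2 (0.22), Nr1h2 (0.13), Nr1h3 (0.33) and Pdss1 (-0.0038). Acat2 was at 0.41 with Xist as a covariate and in the libraries with high Xist alone, and at 0.021 with quality weights. Pmvk was at -0.15 by limma-voom and -0.35 with quality weights. Scaled to the myelin list, relative to the median of all genes, Pmvk was at -0.45 and Tm7sf2 at -0.041. When 1 library was left out, 7 genes turned sign: Acat2 ranged from -0.32 to 0.067, Mvk from -0.73 to 0.036, Pmvk from -0.62 to 0.39, Fdps from -0.42 to 0.23, Tm7sf2 from -0.18 to 0.45, Abca1 from -0.25 to 0.062 and Apoe from -1.05 to 0.13. The cause was not tested. No paired analysis was possible because the labels give no replicate numbers.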

Other observations

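Outside the 30 genes and the naming rule, sterol genes chosen after their values were seen fell or rose without mutant library 2 (17 of 40 called, 4 higher and 13 lower; 27.0% of all genes were called in that fit). Apod, a lipocalin of myelinating cells, had 323, 1989 and 372 CPM in mutant libraries 1, 2 and 3, against 1600, 1482 and 1931 CPM in control libraries 1, 2 and 3, and fell by 2.26 on the log2 scale in that fit (edgeR adjusted p 7.52e-05). Cyp27a1, the mitochondrial sterol hydroxylase, had 9.71, 49.4 and 10.8 CPM in mutants, against 47.3, 60.8 and 47.7 CPM in controls, and fell by 2.33 (edgeR adjusted p 0.000122). Abca2, a lipid transporter of oligodendrocytes, fell by 1.53 (edgeR adjusted p 0.000529). Lrp8, an Apoe and reelin receptor of neurons, rose by 1.397 (edgeR adjusted p 0.00164), with 129, 49.7 and 193 CPM in mutants, against 58.7, 51.5 and 74.2 CPM in controls. For all 4 genes mutant library 2 lay close to the controls and the other mutants did not. With all 6 libraries none of the 4 passed.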
